A study of Mus musculus with 13 samples.

Results

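Interleukin receptor genes were followed in sorted mouse thymocytes: Il7r, Il2ra, Il2rb, Il2rg, Il4ra, Il21r, Il6ra, Il17rb, Il18r1 and Il12rb2. The genes were chosen by name, with earlier results of these data known. Each was read from the brightest probe set on average that carries its symbol alone. Of these 10 genes, 9 had such a probe set among the 19752 genes measured. Each of the 9 had 1 such probe set. Il2rg, the common gamma chain, was not analysed here.

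The cells came from thymus of 2-week-old mice that carried a conditional knockout (cKO) of the HMG box transcription factor Sox4, or were wild type (WT). V2 cells are immature γδ thymocytes with the Vγ2 receptor chain, sorted as TCRδ positive, high for HSA and without CD4 or CD8 on the surface. DP cells, sorted as positive for CD4 and for CD8, are thymocytes of the αβ lineage. The 11 arrays compared were 4 V2 cKO, 3 V2 WT, 2 DP cKO and 2 DP WT arrays. A further 2 arrays were set apart: those labelled DP cKO replicate 5 and V2 WT replicate 5 (immV2). The sex is labelled as mixed, and the driver of the deletion was not given in the sources used here. V2 arrays have titles of 2 forms, V2imm and immV2, and what sets the forms apart is not stated. No label ties replicates to different animals. The p-values therefore measure the spread between the samples at hand, and that spread may be technical.

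Interleukin receptors are assembled from chains that are often shared. IL-7Rα, encoded by Il7r, pairs with the common gamma chain and carries the IL-7 signal that keeps early thymocytes and γδ cells alive, while DP thymocytes are known to switch Il7r off. IL-2Rβ, encoded by Il2rb, serves IL-2 and IL-15, and IL-2Rα (CD25) raises the affinity for IL-2 and marks early double negative thymocytes and regulatory T cells. IL-4Rα and IL-21R also pair with the common gamma chain. IL-6Rα works with gp130, IL-17RB binds IL-25, IL-18R1 belongs to the IL-1 receptor family, and IL-12Rβ2 is the signalling chain for IL-12.

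The arrays set apart carried the profile of the other population. The array labelled DP cKO replicate 5 had Cd4 at 7.47, Rag1 at 6.87 and the γδ gene Sox13 at 11.49 in log2 intensity. In the array labelled V2 WT replicate 5 (immV2), levels ran the other way, with Cd4 at 12.65, Rag1 at 13.02 and Sox13 at 7.73. In the 11 arrays, the summed DP markers spanned 12.32 to 12.62 in V2 cKO and 12.38 to 12.55 in V2 WT arrays, against 15.45 to 15.62 in DP cKO and 15.40 to 15.62 in DP WT arrays. Among the 11 arrays the summed DP markers were thus high in DP arrays alone. In each genotype limma called 10 of the 11 measured DP markers lower in V2, all but Cd1d1. Some of them still read high in V2 arrays, as did Themis at 10.90 to 11.17 in V2 WT and 11.23 to 11.38 in V2 cKO arrays. Summed NK and innate lymphoid markers read 12.49 to 13.36 in V2 cKO and 12.80 to 13.04 in V2 WT arrays. In DP arrays they read 10.18 to 10.30. In the fit 9 of the 12 were higher and 3 lower in V2 cKO, and 7 higher and 5 lower in V2 WT. Macrophage and dendritic cell sums reached 12.69 in V2 cKO and 11.77 in V2 WT arrays, with lowest values of 10.07 and 9.94. In DP arrays they were at most 10.20. The part of such cells in the V2 and DP gaps was not tested. The Sox4 probe set read 8.07, 9.60, 8.11 and 8.23 in V2 cKO and 8.71, 8.64 and 9.68 in V2 WT arrays. In DP cKO arrays it read 8.74 and 8.68, against 9.37 and 8.55 in DP WT arrays, so the groups overlapped in both populations. Where the probe set lies relative to the deleted part is not stated. Array medians lay between 122.2 and 137.2 in intensity, and precision is limited by how few arrays there are. Upper quartiles were less even, at 332.7 to 426.2, and lowest in V2 cKO replicate 4 (V2imm). That array also had the lowest Il2rb and Il21r of the V2 arrays compared, and a link was not tested.

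V2 cells carried more mRNA for 5 of the 9 receptors in both genotypes, and less for Il4ra. Il7r and Il2rb, the chains that carry IL-7 and IL-2 or IL-15 signals, had the widest gaps, and Il17rb, Il18r1 and Il12rb2 had smaller ones. In cKO cells Il6ra was also higher in V2, so 6 genes rose and 1 fell by limma at an adjusted p under 0.05. Over all genes 5.45% passed in this comparison, 3.50% higher and 1.94% lower. In WT cells 5 of the 9 rose and 1 fell, where 4.87% of all genes passed, 3.20% higher and 1.67% lower. The median difference of the 9 genes was 1.45 in cKO and 1.05 in WT cells on the log2 scale, against -0.01 and -0.02 over all genes. By standard deviation over the 11 arrays the 9 genes lay between the 96.6th and 99.9th percentiles of all genes. They were chosen with earlier results known, so these shares and medians describe the genes and do not test them as a set. In bulk RNA, fewer cells of a type and less RNA per cell cannot be told apart.

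Il7r read 9.95, 9.48, 10.62 and 10.73 in V2 cKO and 10.18, 9.72 and 10.22 in V2 WT arrays in log2 intensity. In DP cKO arrays it read 6.01 and 6.10, and in DP WT arrays 6.24 and 6.13. Every V2 array stood above every DP array, with at least 3.38 log2 units between them within a genotype. By limma Il7r was 17.6-fold higher in V2 cKO than in DP cKO cells (log2 difference 4.14, SE 0.22, adjusted p = 1.09e-07). In WT cells it was 15.6-fold higher in V2 than in DP (3.97, SE 0.23, limma adjusted p = 3.55e-07). Its standard deviation over the 11 arrays, 2.05, lay at the 99.9th percentile of all genes.

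Il2rb, the shared chain of the IL-2 and IL-15 receptors, read 8.03, 9.06, 10.13 and 9.69 in V2 cKO and 9.07, 8.81 and 9.90 in V2 WT arrays. It read 6.17 and 6.12 in DP cKO, and 6.02 and 5.92 in DP WT arrays. The V2 arrays were spread over 2.10 log2 units, yet all stood above the DP arrays. By limma it was 8.48-fold higher in V2 cKO than in DP cKO cells (log2 difference 3.08, SE 0.25, adjusted p = 5.05e-06) and 11.2-fold higher in V2 WT than in DP WT cells (3.49, SE 0.26, adjusted p = 3.41e-06). The DP values of Il7r and Il2rb lay close to the lower quartiles of the arrays, 5.72 to 6.09, where the size of a measured difference depends on the background. With 32 added to each intensity before the log, the differences were 3.62 and 3.48 for Il7r and 2.63 and 2.96 for Il2rb in cKO and WT cells.

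Il2ra (CD25) did not follow its partner chain. It read 10.98, 10, 10.25 and 9.59 in V2 cKO and 11.08, 10.78 and 9.65 in V2 WT arrays. DP cKO arrays gave 10.54 and 10.77, and in DP WT arrays 8.73 and 9.88. The V2 and DP arrays overlapped in both genotypes. The limma differences between V2 and DP were -0.45 in cKO cells (SE 0.35, adjusted p = 0.706) and 1.05 in WT cells (SE 0.37, adjusted p = 0.165).

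Il4ra ran the other way. It read 7.94, 8.46, 8.96 and 8.88 in V2 cKO and 7.42, 7.60 and 8.22 in V2 WT arrays. In DP cKO arrays it read 9.46 and 9.37, and in DP WT arrays 9.67 and 9.76. Every V2 array was below every DP array, and the means stood in the order V2 WT, V2 cKO, DP cKO and DP WT, with the single arrays of the V2 groups overlapping. By limma Il4ra was 1.81-fold lower in V2 cKO than in DP cKO cells (log2 difference -0.85, SE 0.18, adjusted p = 0.0111) and 3.62-fold lower in V2 WT than in DP WT cells (-1.85, SE 0.19, adjusted p = 4.29e-05).

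Il21r, the other common gamma chain partner, read 8.12, 9.17, 10.11 and 10.50 in V2 cKO and 8.69, 8.40 and 9.35 in V2 WT arrays. It read 9.54 and 9.55 in DP cKO, and 9.23 and 9.47 in DP WT arrays. The DP arrays lay inside the spread of the V2 cKO arrays, and limma gave differences of -0.07 in cKO cells (SE 0.29, adjusted p = 0.969) and -0.32 in WT cells (SE 0.31, adjusted p = 0.826). The 95% intervals reached from -0.69 to 0.55 and from -0.98 to 0.34. The cKO value averages title sets that differed in direction. With V2imm arrays only among V2, Il21r was lower in V2 cKO than in DP cKO (-0.90), and with immV2 arrays only it was higher (0.76). The WT differences were -0.81 with V2imm arrays only and -0.01 with immV2 arrays only.

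Among receptors of inflammatory cytokines, Il6ra read 8.14, 8.60, 8.59 and 10 in V2 cKO and 7.49, 7.61 and 7.86 in V2 WT arrays. DP cKO arrays gave 7.16 and 6.93, and in DP WT arrays 7.47 and 6.97. All V2 cKO arrays were above the DP arrays, while V2 WT and DP WT arrays were only 0.02 apart at their nearest. By limma it was 3.45-fold higher in V2 cKO than in DP cKO cells (log2 difference 1.79, SE 0.32, adjusted p = 0.00397), and the WT difference of 0.54 did not pass (SE 0.34, adjusted p = 0.602).

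Il17rb, which binds IL-25, read 10.36, 11.51, 10.31 and 10.04 in V2 cKO and 9.53, 9.46 and 9.93 in V2 WT arrays. The DP cKO arrays read 8.53 and 8.73, and in DP WT arrays 7.90 and 8.16. Its group means stood in the order V2 cKO, V2 WT, DP cKO, DP WT, and no neighbouring groups overlapped. By limma it was 3.8-fold higher in V2 cKO than in DP cKO cells (log2 difference 1.92, SE 0.32, adjusted p = 0.00244) and 2.95-fold higher in V2 WT than in DP WT cells (1.56, SE 0.34, adjusted p = 0.0167).

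Il18r1, the ligand-binding chain for IL-18, read 6.77, 6.80, 6.82 and 7.20 in V2 cKO and 5.97, 6.11 and 6.70 in V2 WT arrays. It read 5.69 and 5.21 in DP cKO, and 5.43 and 5.26 in DP WT arrays. The DP values lay below the lower quartile of every array. By limma Il18r1 was 2.73-fold higher in V2 cKO than in DP cKO cells (log2 difference 1.45, SE 0.17, adjusted p = 1.35e-04) and 1.97-fold higher in V2 WT than in DP WT cells (0.98, SE 0.18, adjusted p = 0.00487). With 32 added to each intensity the differences were 1.0 and 0.63, and limma still called both.

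Il12rb2 read 10.07, 9.90, 9.86 and 8.84 in V2 cKO and 9.97, 9.78 and 9.18 in V2 WT arrays. In DP cKO arrays it read 8.27 and 8.57, and in DP WT arrays 8.19 and 8.23. V2 and DP arrays did not overlap, and both gaps passed in limma, by 2.38-fold in cKO (log2 difference 1.25, SE 0.24, adjusted p = 0.00695) and 2.51-fold in WT cells (1.33, SE 0.26, adjusted p = 0.00747).

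**Figure D1:**
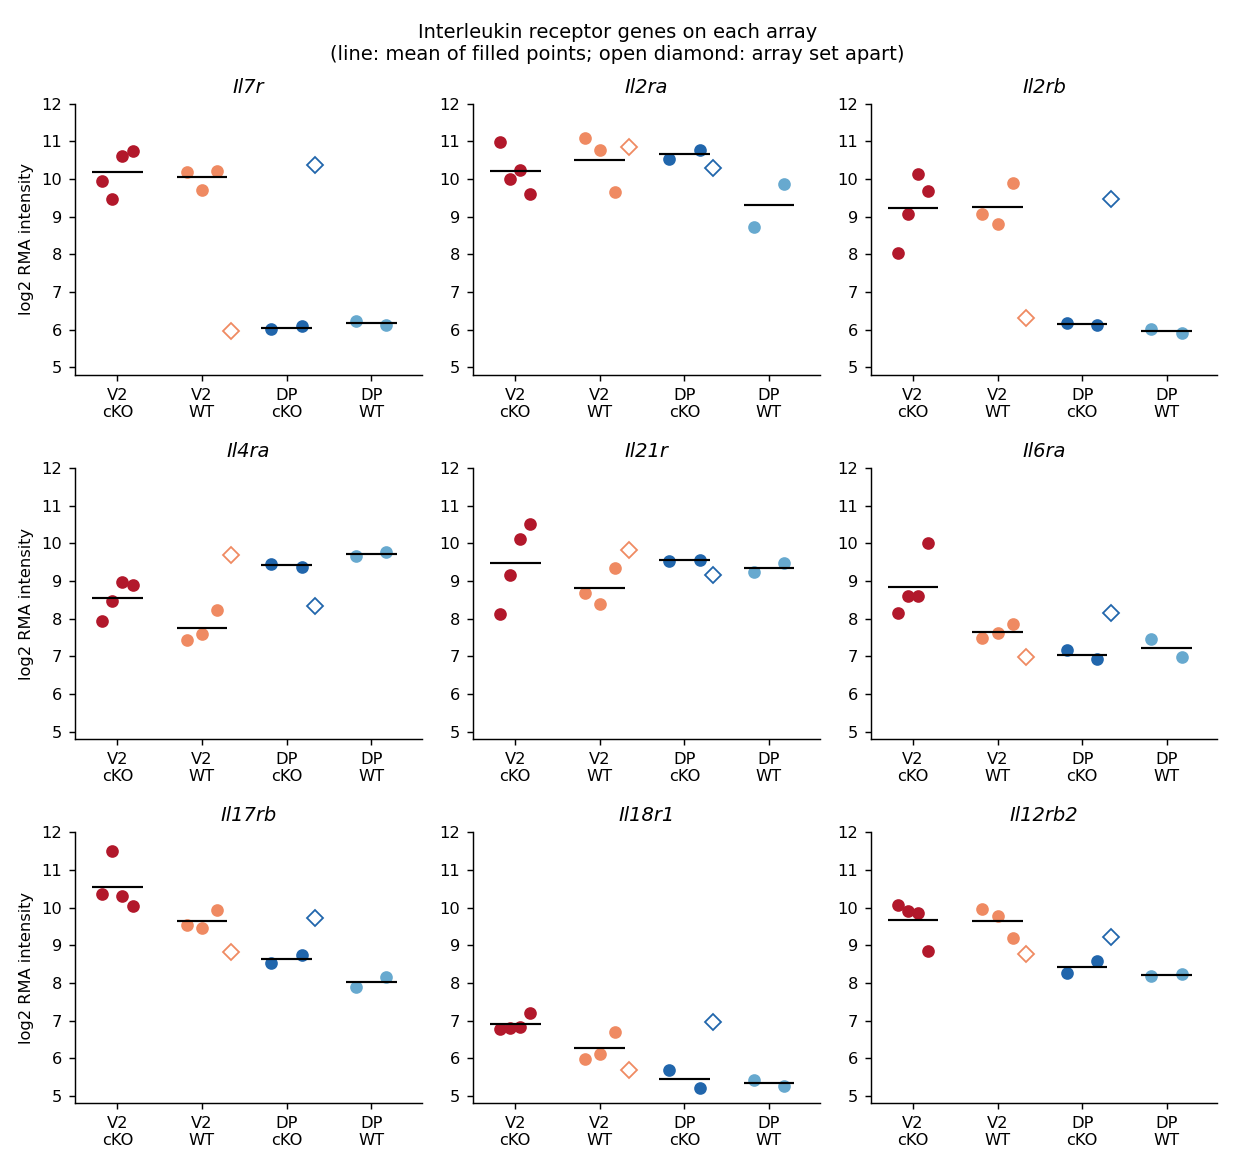
Log2 RMA intensity (y axis) of the 9 interleukin receptor genes on each array, by group (x axis: V2 cKO, V2 WT, DP cKO, DP WT), with a line at the mean of the filled points and open diamonds for the 2 arrays set apart. Il7r and Il2rb sit near 6 in DP cells and between 8.03 and 10.73 in V2 cells, and the diamonds of both genes lie with the other population.

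These calls depended on single arrays for the genes with smaller gaps. Without DP WT replicate 3, Il17rb (log2 difference 1.43, limma adjusted p = 0.172) and Il12rb2 (1.31, adjusted p = 0.0794) no longer passed between V2 WT and DP WT. Without DP WT replicate 5, Il17rb (1.69, limma adjusted p = 0.066), Il18r1 (0.89, adjusted p = 0.0655) and Il12rb2 (1.35, adjusted p = 0.0517) missed the threshold, and Il2ra passed it (1.63, adjusted p = 0.0482). Without V2 WT replicate 3 (immV2), Il17rb (1.08, limma adjusted p = 0.179) and Il18r1 (0.81, adjusted p = 0.0647) missed it. In cKO cells, leaving out DP cKO replicate 3 ended the limma calls of Il4ra (-0.81, adjusted p = 0.156) and Il12rb2 (1.11, adjusted p = 0.139), and leaving out DP cKO replicate 4 those of Il4ra (-0.90, adjusted p = 0.0895) and Il6ra (1.67, adjusted p = 0.0654). Settings of the fit ended further calls. Without the title set term, Il4ra (-0.85, limma adjusted p = 0.187) and Il12rb2 (1.25, adjusted p = 0.061) missed the threshold between V2 cKO and DP cKO. With the arrays of those groups only, Il4ra (-0.85, limma adjusted p = 0.0862), Il6ra (1.79, adjusted p = 0.0613) and Il12rb2 (1.25, adjusted p = 0.089) missed it. With immV2 arrays only among V2, Il4ra (-0.49, limma adjusted p = 0.12) and Il12rb2 (0.94, adjusted p = 0.153) missed it in cKO cells, and Il12rb2 (0.98, adjusted p = 0.238) in WT cells. With V2imm arrays only, Il18r1 missed it in WT cells (0.69, limma adjusted p = 0.0748). Il7r and Il2rb kept their calls in both genotypes whichever 1 array was left out. With all 13 arrays as labelled none of the 9 genes passed, and 0.0354% of all genes did in cKO and 0.0557% in WT cells. The Il7r difference was then 2.70 in cKO and 2.83 in WT cells.

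Other receptor chains were read from a list that held partners of these genes and chains of further cytokine receptors. Of 32 other interleukin receptor chains measured, of 35 listed, limma called 2 higher and 1 lower in V2 cKO than in DP cKO, and 3 higher in V2 WT than in DP WT, beside 5.45% and 4.87% of all genes. Il20ra, an IL-20 receptor chain, was higher in V2 in both genotypes, by 1.23 in cKO (SE 0.23, limma adjusted p = 0.00609) and 1.49 in WT cells (SE 0.25, adjusted p = 0.00252). Il10ra, the ligand-binding chain for IL-10, was higher by 1.47 in V2 cKO (SE 0.35, limma adjusted p = 0.0265), and its WT difference was 1.32 (SE 0.38, adjusted p = 0.0682). Il5ra, below the lower quartile on each of the 11 arrays, was lower there (-0.83, SE 0.14, limma adjusted p = 0.00221), with a WT difference of -0.42 (SE 0.14, adjusted p = 0.154). Csf2ra, the GM-CSF receptor alpha chain, was higher in V2 WT (0.91, SE 0.21, limma adjusted p = 0.0252), with a cKO difference of 0.57 (SE 0.20, adjusted p = 0.156). The difference between these gaps in cKO and WT cells, tested in the same limma fit, passed for none of the 32 chains. The shared chains Il6st (gp130), Il12rb1 and Il17ra passed in neither comparison. The list's median log2 difference was 0.06 in cKO and 0.11 in WT cells. None of the 14 ligand genes listed passed, among them Il7, Il2 and Il15.

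Downstream of these receptors, 2 of 17 signal transducers measured (of 21 listed) were called higher in V2 in both genotypes, and both are the same genes. Over all genes 3.50% were called higher in cKO and 3.20% in WT cells. Stat4, which relays IL-12, read 11.09, 10.85, 11.18 and 11.42 in V2 cKO and 11.30, 11.11 and 11.42 in V2 WT arrays. DP cKO arrays read 10.31 and 9.78, and DP WT arrays 9.88 and 9.83. The difference was 1.09 in cKO (SE 0.19, limma adjusted p = 0.00415) and 1.47 in WT cells (SE 0.21, adjusted p = 7.49e-04). Pik3cd, the leukocyte PI3 kinase subunit, differed by 1.37 in cKO (SE 0.34, limma adjusted p = 0.0297) and 1.67 in WT cells (SE 0.36, adjusted p = 0.0146).

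The 16 genes known to be induced by common gamma chain cytokines split in direction. In each genotype limma called 4 higher and 3 lower in V2 than in DP, beside 5.45% of all genes in cKO and 4.87% in WT cells. The survival gene Bcl2 read 10.24, 10.88, 10.98 and 11.21 in V2 cKO and 11.01, 10.81 and 10.90 in V2 WT arrays, against 8.10 and 8.34 in DP cKO and 7.92 and 8.55 in DP WT arrays. V2 and DP arrays were far apart (log2 difference 2.61 in cKO, SE 0.24, limma adjusted p = 2.14e-05, and 2.73 in WT, SE 0.26, adjusted p = 2.62e-05). Ccnd2, a G1 cyclin, differed by 3.28 in cKO and 3.15 in WT cells (SE 0.28 and 0.30, limma adjusted p = 9.44e-06 and 2.62e-05). Bcl2l1, the relative of Bcl2 that encodes Bcl-xL, was lower in V2, by -2.28 in cKO and -2.09 in WT cells (SE 0.21 and 0.23, limma adjusted p = 2.14e-05 and 8.05e-05). Socs1, a feedback inhibitor of cytokine receptors, was lower by -1.69 and -1.44 (SE 0.20 and 0.22, limma adjusted p = 2.04e-04 and 0.00124). Median differences of the list were 0.13 in cKO and -0.14 in WT cells.

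Of 14 measured factors known to act at Il7r, Il2ra or Il2rb (of 15 listed), limma called 3 higher and 1 lower in V2 in each genotype. Over all genes 5.45% were called in cKO and 4.87% in WT cells. Runx3 read 11.20, 11.38, 11.17 and 11.50 in V2 cKO and 11.54, 11.69 and 11.12 in V2 WT arrays. It read 9.11 and 9.67 in DP cKO, and 8.07 and 8.70 in DP WT arrays, so V2 arrays were higher throughout (1.93 in cKO, SE 0.24, limma adjusted p = 2.83e-04, and 3.04 in WT, SE 0.26, adjusted p = 8.75e-06). Bcl6, a repressor, was lower in V2 (-2.92 in cKO, SE 0.23, limma adjusted p = 3.92e-06, and -3.29 in WT, SE 0.24, adjusted p = 2.52e-06). Eomes, a T-box factor, was higher in V2 in both genotypes, by 1.05 in cKO (SE 0.20, limma adjusted p = 0.00658) and 1.0 in WT cells (SE 0.21, adjusted p = 0.0139). Klf2, which drives genes of mature T cells, was higher in V2 cKO by 1.35 (SE 0.23, limma adjusted p = 0.00286), and its WT difference was 0.86 (SE 0.24, adjusted p = 0.0675). The lists' median differences were -0.10 in cKO and 0.07 in WT cells.

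**Figure D2:**
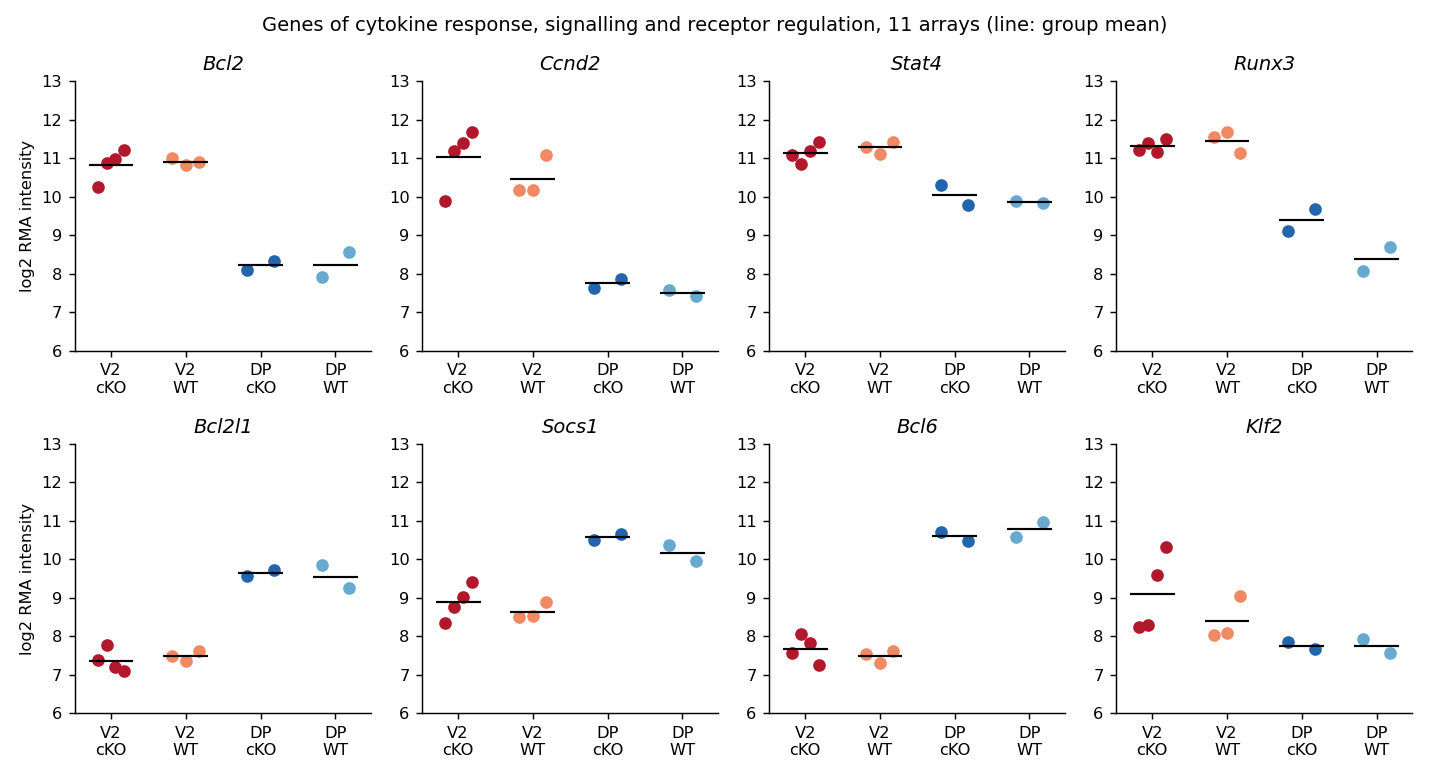
Log2 RMA intensity (y axis) on each of the 11 arrays by group (x axis: V2 cKO, V2 WT, DP cKO, DP WT; line at the group mean) for 8 genes of cytokine response, signalling and receptor regulation. Bcl2, Ccnd2, Stat4 and Runx3 stand higher in V2 arrays, Bcl2l1, Socs1 and Bcl6 stand lower, and Klf2 reaches 10.32 in 1 V2 cKO array.

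The genes with the pattern nearest to each receptor over the 11 arrays were sought by the root mean square difference after centring each gene on its mean, for the 3 receptors with a standard deviation of at least 1. Those nearest to Il7r were Gimap4 at 0.28, Cd7 at 0.29 and Plac8 at 0.36 log2 units, where the median over all genes was 1.98. Nearest to Il2rb were Sema4a at 0.26, Itgb3 at 0.28 and Ccnd2 at 0.32, with a median of 1.66. Nearest to Il17rb were Card6 at 0.22, Gng2 at 0.36 and Prr13 at 0.41, with a median of 1.06. Each median lies close to the receptor's own standard deviation (2.05 for Il7r, 1.70 for Il2rb and 1.09 for Il17rb). The medians therefore mostly restate that spread and do not gauge the likeness. These are descriptions over arrays that share a population, a title set and a sort.

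Sox4 loss in V2 cells was asked of the same 9 genes, and none passed limma at an adjusted p under 0.05, where 0% of all genes passed. The smallest adjusted p over all genes was 0.0572. Il6ra, Il17rb, Il18r1 and Il4ra had the widest gaps, all higher in cKO arrays. These 4 genes had an unadjusted limma p under 0.05, which 3.83% of all genes had, and 1.99% of all genes had it with cKO higher. For the same 4 genes every cKO array stood above every WT array within its own title set, which held for 4.15% of all genes, and 3.99% stood below. Il6ra, Il17rb and Il18r1 also stood above with both title sets together, as 1.69% of all genes did. The median difference of the 9 genes was 0.45 on the log2 scale, against 0.01 over all genes. Because the genes were chosen with earlier results known, these shares and medians are descriptions only.

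Il6ra differed by 1.07 between V2 cKO and V2 WT cells, or 2.10-fold (SE 0.28, 95% interval 0.45 to 1.68, limma adjusted p = 0.49). Within the V2imm arrays the difference was 0.82 (SE 0.24) and within immV2, with 1 WT array, it was 1.44 (SE 0.50). The gap was widest for V2 cKO replicate 4 (immV2), at 10. Its signalling partner Il6st read 10.50, 10.70, 10.30 and 10.06 in V2 cKO arrays, below the 10.96, 10.86 and 10.98 of V2 WT arrays (-0.51, SE 0.17, limma adjusted p = 0.924).

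Il17rb differed by 0.96, or 1.94-fold (SE 0.29, 95% interval 0.34 to 1.58, limma adjusted p = 0.708). It was 1.44 (SE 0.34) in V2imm arrays, where V2 cKO replicate 5 read 11.51, and 0.24 (SE 0.22) in immV2 arrays. V2 cKO replicate 5 (V2imm) also had the highest Sox4 reading of the V2 cKO arrays, 9.60. Its macrophage and dendritic cell sum, 12.69, was the highest of all arrays, and a link was not tested. Leaving out 1 array at a time, the Il17rb difference spanned 0.55 to 1.44. Its partner Il17ra overlapped between the genotypes (-0.11, SE 0.20, limma adjusted p = 0.999). Il17re, a chain of the same family that pairs with IL-17RA for IL-17C, read 7.21, 7.29, 6.97 and 7.38 in V2 cKO arrays, against 8.23, 8.03 and 8.55 in V2 WT arrays. All cKO arrays were below all WT arrays, and the difference of -1.08 had the smallest p of the listed receptor chains (SE 0.16, limma adjusted p = 0.0572, a value that other genes shared).

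Il18r1 differed by 0.57, or 1.49-fold (SE 0.15, 95% interval 0.25 to 0.89, limma adjusted p = 0.463), with 0.74 (SE 0.19) in V2imm and 0.32 (SE 0.23) in immV2 arrays. Il4ra differed by 0.70, or 1.62-fold (SE 0.16, 95% interval 0.35 to 1.04, limma adjusted p = 0.269). Its difference was 0.69 (SE 0.25) in V2imm and 0.70 (SE 0.18) in immV2 arrays. In immV2 the lone WT array is assumed to vary like the arrays of the other groups, for this and the other genes. With all 13 arrays as labelled, the V2 cKO minus V2 WT differences were 1.35 for Il6ra (SE 0.36, limma adjusted p = 0.981), 1.12 for Il17rb (SE 0.33), 0.78 for Il18r1 (SE 0.31) and 0.33 for Il4ra (SE 0.32). The array this adds to V2 WT, replicate 5 (immV2), has the DP profile and read 6.99, 8.83, 5.69 and 9.70 for these genes. The 13-array values therefore mix the genotype difference with the gap between V2 and DP.

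**Figure D3:**
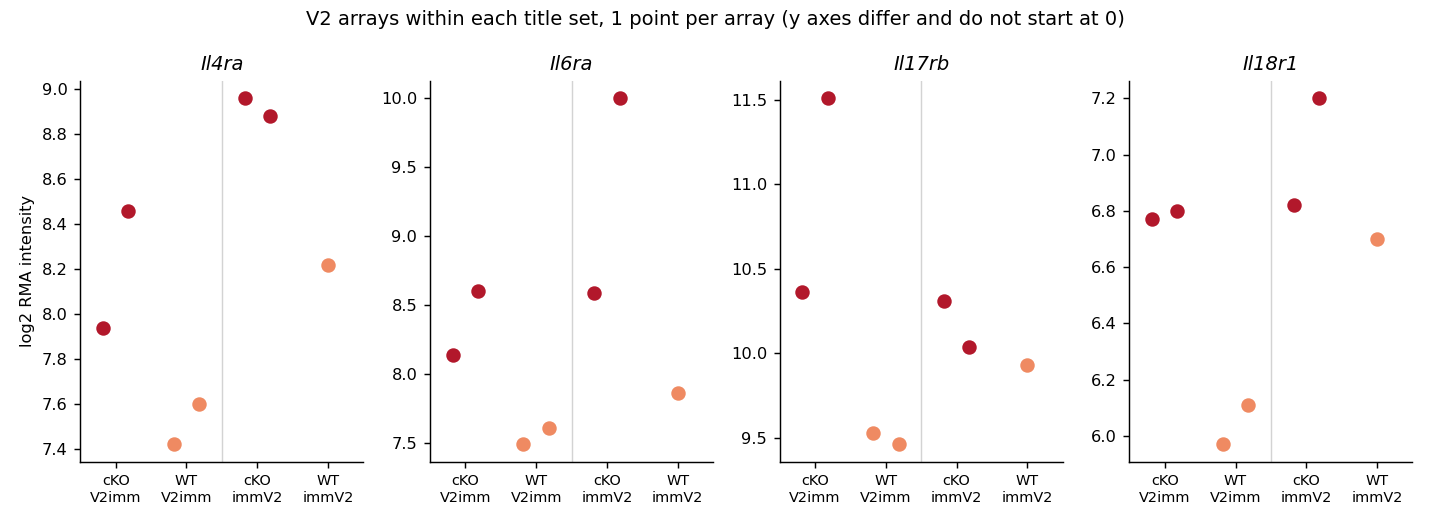
Log2 RMA intensity (y axes, which differ and do not start at 0) of Il4ra, Il6ra, Il17rb and Il18r1 on the 7 V2 arrays, by genotype within each title set (x axis: cKO and WT for V2imm, then for immV2; 1 point per array). Within each set the cKO points lie above the WT points, and for Il4ra the V2imm cKO array at 7.94 lies below the immV2 WT array at 8.22.

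V2 cKO and V2 WT arrays overlapped for the chains of the IL-7 and IL-2 receptors. The difference was 0.04 for Il7r (SE 0.19, 95% interval -0.37 to 0.46), -0.15 for Il2ra (SE 0.31, -0.83 to 0.52) and -0.23 for Il2rb (SE 0.22, -0.71 to 0.25), each with a limma adjusted p of 0.999. It was 0.14 for Il12rb2 (SE 0.22, -0.33 to 0.60) and 0.45 for Il21r (SE 0.26, -0.11 to 1.0). These pooled values join title sets that were not alike. In V2imm arrays the difference was -0.23 for Il7r, -0.44 for Il2ra, -0.39 for Il2rb, 0.11 for Il12rb2 and 0.10 for Il21r. In immV2 arrays, with 1 WT array, it was 0.46, 0.27, 0.01, 0.17 and 0.96 in the same order. With all 13 arrays as labelled Il7r differed by 1.18 (SE 1.02) and Il2rb by 0.71 (SE 0.83). The added array labelled V2 WT replicate 5 (immV2) read 5.96 and 6.30. Il7r, Il2rb and Il21r were higher in every immV2 array than in every V2imm array, as 5.93% of all genes were.

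One V2 array stood at an extreme for many of these genes. V2 cKO replicate 4 (immV2) was the highest of the 7 V2 arrays for Il7r, Il21r, Il6ra and Il18r1 and the lowest for Il2ra and Il12rb2. It also had the lowest level of Cd24a, which encodes HSA, used in the sort. Cd24a read 12.31, 11.61, 10.38 and 9.46 in V2 cKO and 12.21, 12.02 and 11.67 in V2 WT arrays (-0.79, SE 0.32, limma adjusted p = 0.999). Klf2 was highest on the same array, at 10.32.

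Of the marker lists set beside the V2 genotypes, the γδ list had summed levels that did not overlap, and limma called no gene of these lists. All 7 γδ markers measured of 12, Il17re among them, were lower in cKO in the fit (median -1.04), and their summed level was 12.18 to 13.08 in cKO and 13.53 to 13.65 in WT arrays. All 12 macrophage and dendritic cell markers had a positive cKO minus WT difference in the fit with the title set (median 0.20), while by plain group means 8 were higher and 4 lower in cKO. Their summed levels overlapped, at 10.07 to 12.69 in cKO and 9.94 to 11.77 in WT arrays. Of 10 early double negative thymocyte markers 9 were lower in cKO in the fit (median -0.13), and of 8 thymic epithelium and stroma markers 7 (median -0.09). Of 9 granulocyte and mast cell markers 7 were higher (median 0.13). The summed levels of these lists overlapped too. Of 9 measured markers of regulatory and single positive T cells, of 10 listed, 7 were higher in cKO in the fit, with overlapping summed levels of 12.04 to 13.18 in cKO and 12.07 to 12.43 in WT arrays. Foxp3, which defines regulatory T cells, stayed between 7.03 and 7.44 in cKO and between 6.96 and 7.12 in WT arrays, near the array medians. Cd74, the invariant chain of MHC class II cells, read 8.19, 10.98, 7.77 and 6.48 in cKO and 10.23, 9.93 and 6.19 in WT arrays. The part of these markers and their cells in the receptor differences was not tested.

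In DP cells none of the 9 genes passed between cKO and WT either, where limma called 0.0253% of all genes. Il2ra had the widest gap. It was 2.54-fold higher in DP cKO than in DP WT cells (log2 difference 1.35, SE 0.40, 95% interval 0.48 to 2.22, limma adjusted p = 0.985), and both cKO arrays stood above both WT arrays. Its unadjusted p was under 0.05, as that of 2.71% of all genes was. Without DP WT replicate 3, which read 8.73, the difference was 0.77, and without DP WT replicate 5, which read 9.88, it was 1.92.

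Il17rb differed by 0.60 in DP cells (SE 0.37, limma adjusted p = 1), and Il4ra by -0.31 (SE 0.20, limma adjusted p = 1). Il2ra, Il2rb, Il21r, Il17rb and Il12rb2 stood above in both cKO arrays, and Il7r and Il4ra below. With 2 arrays a side, 15.8% of all genes stood above and 14.0% below. The differences of Il7r (-0.13), Il2rb (0.18), Il21r (0.19), Il6ra (-0.18), Il18r1 (0.10) and Il12rb2 (0.21) were all smaller than 0.25 in size. With all 13 arrays as labelled the DP difference was 1.31 for Il7r (SE 1.32) and 1.29 for Il2rb (SE 1.07). The added array labelled DP cKO replicate 5 read 10.38 and 9.48.

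**Figure D4:**
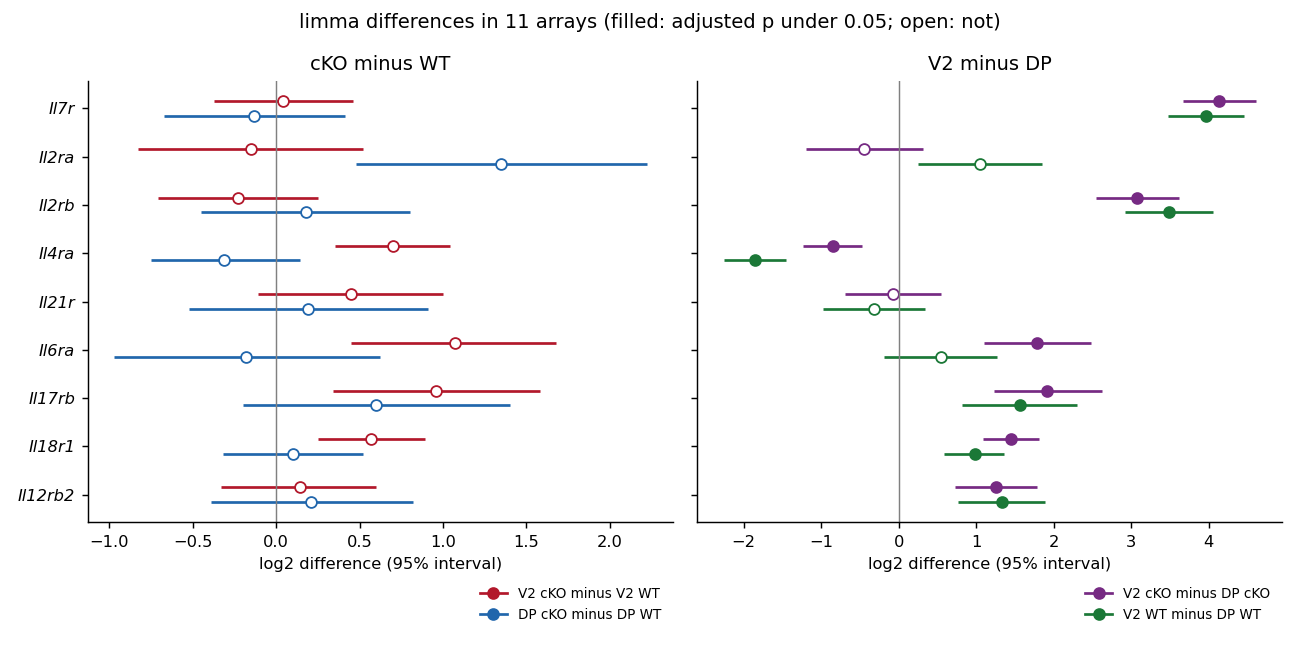
Limma log2 differences with 95% intervals (x axis) for the 9 interleukin receptor genes (y axis), cKO minus WT in V2 and DP cells on the left and V2 minus DP in cKO and WT cells on the right, filled where the adjusted p is under 0.05. No point is filled on the left, and on the right Il7r and Il2rb reach 3.08 to 4.14 while Il4ra lies at -0.85 and -1.85.

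The cKO effect was compared between the populations by the difference of the V2 and DP differences. None of the 9 genes passed limma at an adjusted p under 0.05, as was so for 0% of all genes, and the smallest adjusted p over all genes was 0.146. Il4ra had the smallest p of the 9, being higher in V2 cKO and lower in DP cKO arrays (1.0, SE 0.26, limma unadjusted p = 0.00199, adjusted p = 1). Il2ra differed by -1.50 (SE 0.51, limma unadjusted p = 0.0115, adjusted p = 1) and Il6ra by 1.24 (SE 0.46, limma unadjusted p = 0.0192, adjusted p = 1). An unadjusted p under 0.05 was found for 1.88% of all genes. The V2 cKO and DP cKO effects are thus not shown to differ for any of these receptors.

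Promoter sequences are shown for Il7r, whose gap between V2 and DP was the widest, for Il6ra, which had the largest V2 cKO gap, and for Il4ra, lower in V2 than in DP and without any of the motifs searched. They come from RefSeq promoter windows of mouse build GRCm38.p6, written 5′ to 3′ on the gene's strand. For Il6ra and Il4ra all 250 bases before the start are printed. For Il7r only the first 215 are printed, which end 30 bases inside the annotated gene and short of the start that the promoter table uses. Il7r lies on chromosome 15 (minus strand, gene at 9506159 to 9529941), Il6ra on chromosome 3 (minus strand, 89869324 to 89913196) and Il4ra on chromosome 7 (plus strand, 125552271 to 125579474). The stretches are chr15:9529912-9530126, chr3:89913197-89913446 and chr7:125552021-125552270. Capitals mark matches to ACTTCCTG, an ETS-type motif, or to TTCNNNGAA, a STAT-type motif, on either strand.
Il7r: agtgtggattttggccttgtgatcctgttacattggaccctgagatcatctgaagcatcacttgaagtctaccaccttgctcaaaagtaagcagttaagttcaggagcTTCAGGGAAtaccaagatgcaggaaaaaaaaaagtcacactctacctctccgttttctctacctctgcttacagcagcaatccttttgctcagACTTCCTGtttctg
Il6ra: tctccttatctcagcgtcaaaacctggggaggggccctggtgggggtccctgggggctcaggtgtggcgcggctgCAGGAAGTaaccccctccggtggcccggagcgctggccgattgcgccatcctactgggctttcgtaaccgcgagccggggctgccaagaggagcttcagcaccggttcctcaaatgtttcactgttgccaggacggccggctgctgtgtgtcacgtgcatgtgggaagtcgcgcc
Il4ra: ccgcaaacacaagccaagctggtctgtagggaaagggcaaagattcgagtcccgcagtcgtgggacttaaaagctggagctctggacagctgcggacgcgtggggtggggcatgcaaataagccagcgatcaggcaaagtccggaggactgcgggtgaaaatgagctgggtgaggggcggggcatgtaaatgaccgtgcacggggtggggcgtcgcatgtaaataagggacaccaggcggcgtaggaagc

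The 5 motifs were searched on both strands of the 250 bases before the start in 32851 windows, and 9 of the 10 receptor genes had an entry. The ETS-type motif ACTTCCTG was in 2.69% of all windows and in those of Il7r, 49 to 42 bases before the start that the promoter table uses, and Il6ra, 175 to 168 bases before it. The last 65 bases of the Il7r window, the ETS-type match among them, lie inside the gene as annotated from its longest transcript. Of these 65 bases the first 30 are printed above. The STAT-type motif TTCNNNGAA was in 7.02% of windows and in windows of Il7r, Il12rb2 and Il18r1. The shares count windows, and Il18r1 had more than 1 window, with its matches only in that starting at 40465756 on chromosome 1. The Fox-type motif GTAAACA was in 3.17% of windows and in that of Il21r. The Sox-type motifs AACAAAG and AACAATG, in 5.03% and 3.29% of windows, were in 0 of these 9. In base composition the Il7r window held 1 CpG and 44.0% GC and the Il2ra window 3 CpG and 42.4% GC, while Il6ra (18 CpG, 65.2% GC), Il4ra (17 CpG, 59.6% GC) and Il17rb (27 CpG, 72.0% GC) lay above the medians over all windows of 6 CpG and 52.4% GC. These matches describe letters in a window and no binding was measured.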

How the data were processed

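The 13 samples, sorted from mouse thymus, had 1 Affymetrix array each, with a whole-transcript labelling kit named in the labels. The authors deposited 1 RMA intensity per probe set, made with Affymetrix Power Tools; the version is not stated, per the submitters' processing notes. RMA removes background, brings arrays to a shared distribution and combines the probes of a set. Deposited intensities spanned 6.16 to 23800, so they were taken as linear, and log2 of each was used. The platform annotation gave 1 symbol to 21425 of 24922 probe sets, several to 1399, and did not list 2098. The RefSeq table held the gene ID of 21347 and changed 0 symbols. Where a gene had more than 1 probe set (921 genes) the brightest on average was kept, giving 19752 genes.

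Groups came from the titles. Limma 3.58.1 in R 4.3.3 (lmFit, eBayes with an intensity trend) fitted 4 group means and the title set within V2 on 11 arrays, so that fitted V2 differences are not plain differences of means. All tests were two-sided, and p-values were adjusted over all genes (Benjamini-Hochberg). The 2 arrays with markers of the other population were left out and the fit of 13 arrays as labelled is given beside. No arrays held identical values, and the highest correlation between arrays was 0.9935. Deviations of same-numbered arrays from the fit had correlations of -0.35, -0.22 and -0.50 in V2 and 0.18 in DP. The fit makes deviations cancel within each V2 title set, which pushes the V2 correlations down. They therefore cannot show whether same-numbered arrays are pairs. No label gives a pairing, and numbers were not taken as pairs. The members and lists were chosen with earlier results of these data known. Named besides the members were up to 2 genes a direction with the smallest p among the called genes of each list, the 3 genes nearest in pattern to members with an SD of at least 1, and partners, ligands and markers standing beside a member. Alternatives were quantile normalisation, median centring, a filter on dim genes, 32 added before the log, no trend, no title set, a replicate block, arrays of 2 groups only, V2 arrays of 1 title set only, the mean of probe sets and leaving out each array. The fit was tested on simulated data. Plots came from matplotlib 3.10.9 (Python 3.11.15).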

Additional observations from a re-analysis of the deposited data

Results flagged for a closer look

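The array labelled DP cKO replicate 5, which no comparison of 11 arrays used, carried receptor signal far above both DP WT arrays: Il7r at 10.38, Il2rb at 9.48, Il17rb at 9.72 and Il18r1 at 6.96 in log2 intensity, where DP WT arrays read at most 6.24, 6.02, 8.16 and 5.43. Il7r on the array labelled V2 WT replicate 5 (immV2) was 5.96, far below the other 3 arrays with that label, which read 9.72 to 10.22. Among the 4 V2 cKO arrays, replicate 4 (immV2) stood apart from the other 3 for Il18r1, at 7.20 where the others read 6.77 to 6.82. That gap is small beside the V2 WT arrays among the 11, which read 5.97 to 6.70 for this gene. For Il12rb2 the same V2 cKO array read 8.84, where the others read 9.86 to 10.07. The limit used was the 95% critical value of Dixon's test for 4 arrays, which chance passes in about 1 in 20 groups. It was passed by 3 of 18 sets of 4 arrays (9 genes in V2 cKO and in V2 WT as labelled). The V2 WT sets hold the array set apart for its DP profile, and the V2 cKO sets mix 2 title sets. The count therefore cannot be read against that rate.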

How the results depend on the processing

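Of 45 differences (9 genes in 5 comparisons), 18 kept direction and call in all of up to 23 alternatives and 13 turned direction in at least 1. Over 1003 values, 940 kept both, 33 lost the call, 1 gained it and 29 turned. No member was called between cKO and WT in either population, or in the difference of these effects, under any alternative. With 13 arrays as labelled the turned differences were 0.71 for Il2rb (V2 cKO minus WT), 1.31 for Il7r and 0.19 for Il6ra (DP cKO minus WT), 0.06 for Il21r (V2 cKO minus DP cKO) and -0.13 for Il7r (difference of effects). Under the replicate block they were -0.02 for Il7r (V2) and 0.22 for Il12rb2 (difference of effects). With V2imm arrays only they were -0.23 for Il7r (V2), and -0.10 for Il7r and -0.09 for Il21r (difference). With immV2 arrays only they were 0.27 for Il2ra and 0.01 for Il2rb (V2), 0.76 for Il21r (V2 cKO minus DP cKO) and -0.36 for Il17rb (difference). Leaving out 1 array at a time, turned differences spanned -0.23 to 0.23 for Il7r (-0.01 without V2 cKO replicate 4 (V2imm)), -0.44 to 0.16 for Il2ra, -0.45 to 0.07 for Il2rb and -0.04 to 0.30 for Il12rb2 in V2, and -0.42 to 0.07 for Il6ra and -0.14 to 0.34 for Il18r1 in DP. They spanned -0.22 to 0.22 for Il21r in V2 cKO minus DP cKO and -0.48 to 0.02 in V2 WT minus DP WT. For the difference of effects they spanned -0.10 to 0.36 (Il7r), -0.09 to 0.60 (Il21r), -0.05 to 0.84 (Il17rb) and -0.25 to 0.09 (Il12rb2). Members called between V2 cKO and DP cKO were 7, and 0 with 13 arrays, 4 with the arrays of 2 groups only, 5 without the title set, 5 with immV2 arrays only and 5 to 7 leaving out 1 array; between V2 WT and DP WT they were 6, and 0 with 13 arrays, 5 with either title set only and 4 to 6 leaving out 1. Genes called between V2 cKO and V2 WT were 0, and 13 with quantile normalisation, 5 with the filter, 18 with the replicate block, 6 with V2imm arrays only and 0 to 44 leaving out 1 array (44 when V2 cKO replicate 5 (V2imm) was left out, 7 for V2 cKO replicate 4 (immV2), 5 for V2 WT replicate 3). Between DP cKO and DP WT they were 5, and 0 with 13 arrays, 9 with quantile normalisation, 3 without the title set, 1 with the replicate block, 0 with arrays of 2 groups only and 0 to 14 leaving out 1 (14 without V2 cKO replicate 4 or 5 (V2imm), 8 without V2 WT replicate 3, 3 without DP cKO replicate 3, 0 without DP WT replicate 5). Between V2 cKO and DP cKO they were 1076, and 7 with 13 arrays, 637 without the title set, 577 with arrays of 2 groups only and 480 to 1632 leaving out 1 (1632 without V2 cKO replicate 4 (V2imm), 480 without DP cKO replicate 3, 544 without DP cKO replicate 4, and 1031 without either DP WT array); between V2 WT and DP WT they were 962, and 11, 594 without the title set and 477 to 1575 (477 without DP WT replicate 3, 606 without V2 WT replicate 4 (V2imm), 639 without V2 WT replicate 3, 836 without DP cKO replicate 3, and 1575 and 1478 when V2 cKO replicate 4 or 5 (V2imm) was left out). For the difference of effects they were 0, and 4 with the replicate block and 0 to 4 leaving out 1 array. Causes were not tested. Same-numbered arrays share only a number, so calls under the replicate block are no sign of pairing. Not run were arrays of 2 groups only for the difference of effects and single title sets for DP; Il18r1 did not pass the dim filter. Signal near background limits Il18r1, and Il7r and Il2rb in DP cells.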
